A study of Homo sapiens with 3 samples.

Results

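The transcripts of 10 erythroid transcription factors were followed in RNA sequencing libraries of cells given a short hairpin RNA (shRNA) against UCP2 and of cells given a control vector. The 10 genes, GATA1, GATA2, TAL1, KLF1, NFE2, LMO2, ZFPM1, GFI1B, MYB and BCL11A, were taken by symbol from a table of 61806 genes, and each symbol matched 1 gene. There were 3 libraries, all from cells labelled KG1, an established line from human acute myeloid leukemia. A pair of libraries came from cells transduced with lentiviral shUCP2#2 or lentiviral shUCP2#3, 1 library for each hairpin, and 1 library came from cells with the control vector. Cells taken as positive after transduction were grown on in the same serum-rich medium in every group. UCP2 encodes a carrier of the inner mitochondrial membrane, and the question was which transcripts change when cells carry a hairpin against it.

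These factors specify red cell precursors and switch on their genes. GATA1 binds GATA sequences together with the TAL1, LMO2 and LDB1 proteins and with the cofactor ZFPM1 (FOG1), and it takes over sites held by GATA2 as progenitors mature. KLF1 binds CACCC sequences at globin and other red cell genes, NFE2 pairs with small MAF proteins at globin enhancers, GFI1B is a repressor, MYB keeps progenitors dividing and BCL11A silences the fetal globin genes.

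The libraries held 16475165 gene counts for shUCP2#2, 17562153 for shUCP2#3 and 18375090 for the control. UCP2 itself had 608 and 649 counts in the shUCP2#2 and shUCP2#3 libraries, against 651 in the control library, a log2 fold change of 0.06 (standard error, SE, 0.15, adjusted p = 0.888 by edgeR). No fall of the transcript was detected, and libraries are called by their labels throughout. The label KG1 also went against the markers. CD34, a progenitor antigen, had 10 and 0 counts in the shUCP2#2 and shUCP2#3 libraries and 0 in the control, and both HLA-DRA and the myeloperoxidase gene MPO had 0 in every library. Of 15 markers of KG1 cells and myeloblasts, 6 exceeded 10 CPM (counts scaled to library size) in all 3 libraries, against 11 of 15 erythroid markers. Of the KG1 and myeloblast markers 4 had 0 counts in every library, and their summed level was 544 and 598 CPM in the shUCP2#2 and shUCP2#3 libraries and 548 CPM in the control. The summed level of the erythroid markers was 3687 and 3779 CPM in the shUCP2#2 and shUCP2#3 libraries and 4639 CPM in the control, a list that holds none of the 10 factors, and its part in the results on the factors was not tested. A few abundant genes weigh most in this sum, and single markers differed in direction. TFRC had 1505 and 1539 CPM with the hairpins, against 1943 CPM in the control, and HBG2 928 and 935 CPM, against 1349 CPM. RHAG had 760.5 and 825.5 CPM with the hairpins, against 714.5 CPM in the control. The markers of monocytes and granulocytes gave 1 of 11 above 10 CPM in all 3 libraries, and those of lymphocytes 1 of 9. The shUCP2#2 library stood apart by the collagen gene COL1A2, with 806 counts against 3 in the shUCP2#3 library and 2 in the control, so each factor is given by hairpin as well.

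Among the 10 factors, KLF1, LMO2, GATA1 and NFE2 were lower and MYB was higher in the shUCP2 libraries than in the control. The other 5, GATA2, TAL1, GFI1B, ZFPM1 and BCL11A, did not pass the test. The test was edgeR's quasi-likelihood F test on raw counts, two-sided, with Benjamini-Hochberg adjustment over all 15232 genes tested and a threshold of 0.05. All 10 factors passed its filter on low counts. It called 4 of the 10 factors lower, where 6.11% of all genes tested were called lower, and 1 higher, where 6.25% of all were called higher. The median log2 fold change of the 10 factors was -0.22, against 0.02 over all genes tested. The factors were chosen with earlier results of these data known, so these contrasts with all genes are a description only. The log2 fold change of KLF1 was larger in size than that of 72.6% of all genes tested. Among the genes called, KLF1 exceeded 48.0% in size and GATA1 6.32%. Of the 10 factors, 9 lay on the same side of the control with both hairpins, ZFPM1 being the exception. Both ratios were taken against the same control library, so they are not independent, and the share over all genes tested was not computed. Each library came from cells with a different vector, so no vector had a replicate culture, and the control was a single library. The spread behind the p-values therefore came only from the hairpin libraries. This spread holds differences between hairpins, between cultures and of technique, which cannot be told apart. In the edgeR test above it was pooled over genes of similar level. An SE thus does not show how far the hairpins agreed for that factor. TAL1, with log2 ratios of 0.21 (shUCP2#2) and 0.22 (shUCP2#3), and KLF1, with -0.39 and -0.61, both had an SE of 0.10. DESeq2 called KLF1 alone (adjusted p = 0.0116, 5 of 10 at an unadjusted p under 0.05) and gave no adjusted p for ZFPM1 and BCL11A. The test by limma on log2 FPKM called none of 9 (5 or 6 at an unadjusted p under 0.05), and edgeR without an abundance trend none of 10 (1 at an unadjusted p under 0.05). Over all genes, DESeq2 gave an unadjusted p under 0.05 to 1682 of 25001, and edgeR without a trend to 1770 of 15232. The test by limma gave it to 2291, 2306 and 2266 of 10937 genes with pseudocounts of 1, 0.1 and 5. In bulk RNA, fewer cells expressing a factor and less of its RNA per cell cannot be told apart.

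**Figure D1:**
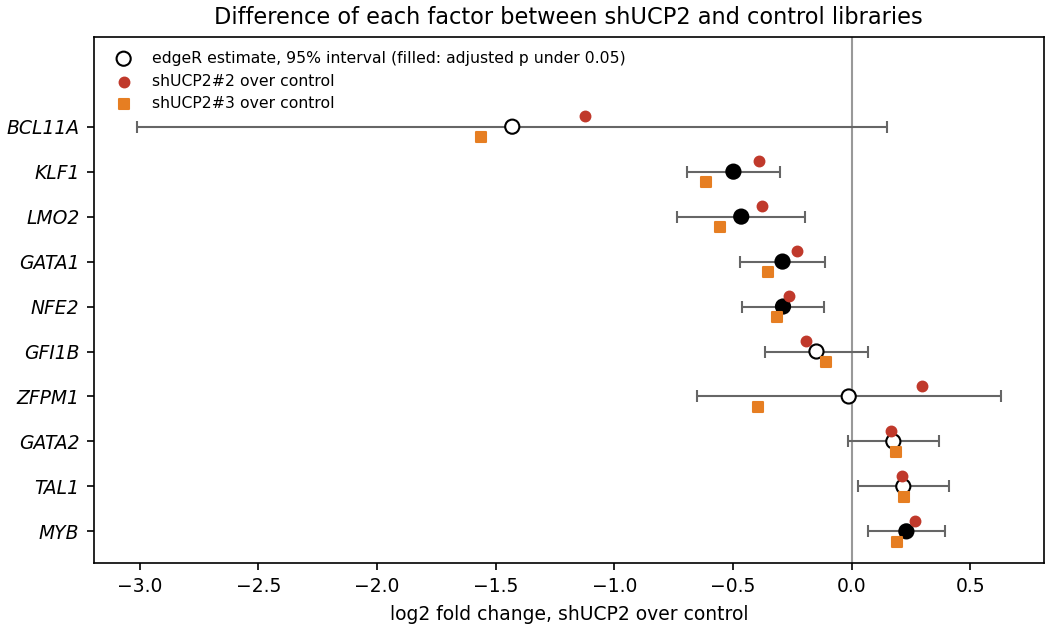
Log2 fold change of each factor, shUCP2 over control (horizontal axis), with the edgeR estimate and its 95% interval (circles and bars, filled where the adjusted p was under 0.05) and the ratio of each hairpin library to the control (colored points). KLF1, LMO2, GATA1 and NFE2 lie below 0 and MYB above it with both hairpins, while the hairpins lie on opposite sides of 0 for ZFPM1.

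The GATA factors were examined first. GATA1 (ENSG00000102145, chrX:48786540-48794311, plus strand, GRCh38), the main factor of red cell and platelet precursors, had 2874 counts in the shUCP2#2 library and 2843 in the shUCP2#3 library, against 3777 in the control. Scaled to depth, these were 175 and 161 CPM with the hairpins, against 206 CPM in the control. Both hairpin libraries lay below the control, and by more than they differed from each other. GATA1 averaged 168 ± 10.0 CPM in the shUCP2 libraries (SD, n = 2), 0.817 times the control (95% interval 0.721 to 0.926), a log2 fold change of -0.29 (SE 0.09, adjusted p = 0.018 by edgeR). The log2 ratio to the control was -0.23 with shUCP2#2 and -0.35 with shUCP2#3.

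GATA2 (ENSG00000179348, chr3:128479427-128493201, minus strand), the GATA factor of stem and progenitor cells, had 149 and 151 CPM in the shUCP2#2 and shUCP2#3 libraries, against 133 CPM in the control, from 2444, 2669 and 2439 counts. Its hairpin libraries were close to each other and above the control, with a log2 fold change of 0.18 (SE 0.10), but the 95% interval of -0.02 to 0.37 reached past 0 and the edgeR adjusted p was 0.278. Per base of exon, the reads of GATA2 were 0.269 times those of GATA1 in the shUCP2#2 library (95% counting interval 0.255 to 0.284) and 0.297 times in the shUCP2#3 library (0.281 to 0.313), against 0.204 times in the control (0.194 to 0.215). The intervals of both hairpin libraries lay above that of the control, and the mean ratio with the hairpins was 1.39 times the control's. These intervals come from an exact binomial calculation and cover counting error only, not variation between cultures.

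TAL1 and LMO2 encode a DNA-binding protein and a bridging protein of the same complex, and their transcripts lay on opposite sides of the control. TAL1 (ENSG00000162367, chr1:47216290-47232225, minus strand) had 158 and 159 CPM in the shUCP2#2 and shUCP2#3 libraries, against 136 CPM in the control, from 2588, 2806 and 2500 counts. The hairpin libraries were nearly equal and above the control. The log2 fold change was 0.22 (SE 0.10, 95% interval 0.03 to 0.41), and the edgeR adjusted p of 0.141 did not pass.

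LMO2 (ENSG00000135363, chr11:33858576-33892076, minus strand) had 742 counts in the shUCP2#2 library and 706 in the shUCP2#3 library, against 1080 in the control. Its level was 45.3 and 40.0 CPM with the hairpins, against 58.9 CPM in the control, and the hairpin libraries were nearer each other than either was to the control. LMO2 fell by 0.47 on the log2 scale (SE 0.14, 95% interval -0.74 to -0.20, adjusted p = 0.0101 by edgeR). The ratio was -0.38 with shUCP2#2 and -0.56 with shUCP2#3.

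KLF1 had the smallest adjusted p of the 10 factors. KLF1 (ENSG00000105610, chr19:12884422-12887201, minus strand), the activator of the adult globin gene and of many red cell proteins, had 1873 counts in the shUCP2#2 library and 1725 in the shUCP2#3 library, against 2747 in the control. The levels were 114 and 97.8 CPM with the hairpins, against 150 CPM in the control. KLF1 averaged 106 ± 11.7 CPM in the shUCP2 libraries (SD, n = 2), and its log2 fold change was -0.50 (SE 0.10, 95% interval -0.69 to -0.30, adjusted p = 3.08e-05 by edgeR). The log2 ratio was -0.39 with shUCP2#2 and -0.61 with shUCP2#3, and the 2 hairpin libraries differed from each other beyond counting error (shUCP2#3 over shUCP2#2 0.856, counting interval 0.801 to 0.914). They also did so for GATA1 (0.919, 0.872 to 0.968), LMO2 (0.884, 0.796 to 0.981) and MYB (0.950, 0.921 to 0.979).

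NFE2 (ENSG00000123405, chr12:54292111-54301015, minus strand), the large subunit of the dimer that binds globin enhancers, had 215 and 208 CPM in the shUCP2#2 and shUCP2#3 libraries, against 258 CPM in the control, from 3523, 3660 and 4734 counts. The hairpin libraries did not differ from each other beyond counting error (ratio 0.965, counting interval 0.921 to 1.01), and both were below the control. NFE2 fell by 0.29 on the log2 scale (SE 0.09, 95% interval -0.46 to -0.12, adjusted p = 0.012 by edgeR).

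The repressor GFI1B and the cofactor ZFPM1 did not pass the test. GFI1B (ENSG00000165702, chr9:132944000-132991687, plus strand) had 87.9 and 93.1 CPM in the shUCP2#2 and shUCP2#3 libraries, against 100 CPM in the control, from 1440, 1642 and 1839 counts. Both hairpin libraries were slightly below the control, with a log2 fold change of -0.15 (SE 0.11, 95% interval -0.36 to 0.07, adjusted p = 0.471 by edgeR). ZFPM1 (ENSG00000179588, chr16:88453280-88537031, plus strand) had 133 counts in the shUCP2#2 library and 88 in the shUCP2#3 library, against 121 in the control, or 8.12, 4.99 and 6.60 CPM. The hairpin libraries lay on either side of the control, with log2 ratios of 0.30 for shUCP2#2 and -0.40 for shUCP2#3. The shUCP2#3 library had 0.615 times the level of the shUCP2#2 library (counting interval 0.464 to 0.811). Its joint log2 fold change of -0.01 (SE 0.33, 95% interval -0.65 to 0.63, adjusted p = 0.991 by edgeR) therefore averages opposite values.

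MYB alone among the 10 factors was called higher. MYB (ENSG00000118513, chr6:135181308-135219173, plus strand), a factor of dividing progenitors, had 8055 counts in the shUCP2#2 library and 8233 in the shUCP2#3 library, against 7490 in the control. Its level was 492 and 467 CPM with the hairpins, against 408 CPM in the control, so that the hairpin libraries were both above it. MYB rose by a log2 fold change of 0.23 (SE 0.08, 95% interval 0.07 to 0.39, adjusted p = 0.044 by edgeR), with log2 ratios of 0.27 for shUCP2#2 and 0.19 for shUCP2#3. The call was near the threshold, and without the filter on low counts the adjusted p was 0.0791.

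BCL11A (ENSG00000119866, chr2:60450520-60554467, minus strand), the silencer of the fetal globin genes, was barely transcribed in any library. It had 17 counts in the shUCP2#2 library and 13 in the shUCP2#3 library, against 44 in the control, or 1.04, 0.737 and 2.40 CPM. Both hairpin libraries were below the control, and the 30 counts of the hairpin libraries together gave 0.368 times the control level with a counting interval of 0.223 to 0.598. The edgeR test, which also weighs the spread usual for genes of this level, gave a log2 fold change of -1.43 (SE 0.81, 95% interval -3.01 to 0.15, adjusted p = 0.283).

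Levels were next compared between the factors as FPKM, the reads of a gene scaled to the library total and to the kilobases of its exons. GATA1 was the highest of the 10 in every library, with 112 and 104 FPKM in the shUCP2#2 and shUCP2#3 libraries and 132 FPKM in the control, and NFE2 came next with 90.5 and 88.2 FPKM in the hairpin libraries and 109 FPKM in the control. KLF1 and MYB changed places on this scale, which divides by exonic sizes of 1613 bases for KLF1 and 5497 for MYB. Before that division MYB had more reads than KLF1 in every library. It had 4.30 and 4.77 times as many in the shUCP2#2 and shUCP2#3 libraries, and 2.73 times in the control. MYB had 88.9 and 85.3 FPKM and KLF1 70.5 and 60.9 FPKM in the shUCP2#2 and shUCP2#3 libraries, whereas in the control MYB had 74.2 FPKM and KLF1 92.7 FPKM. In the hairpin libraries NFE2 and MYB did not differ beyond counting error (per-length ratio 1.02 for shUCP2#2, interval 0.978 to 1.06, and 1.03 for shUCP2#3, 0.994 to 1.07). GATA2 followed with 30.2 and 30.9 FPKM in the shUCP2 libraries and 27.0 FPKM in the control, then TAL1 with 27.5 and 28.0 FPKM in the shUCP2 libraries and 23.9 FPKM in the control. LMO2 and GFI1B came below them. LMO2 had 15.6 and 13.9 FPKM with the hairpins and 20.3 FPKM in the control, and GFI1B had 14.3 and 15.3 FPKM with the hairpins and 16.4 FPKM in the control. In the shUCP2#2 library these neighbors did not differ beyond counting error (ratio 1.09, interval 0.993 to 1.19). ZFPM1 lay far lower at 1.31 and 0.81 FPKM in the shUCP2 libraries and 1.07 FPKM in the control, and BCL11A was the lowest, from 0.03 to 0.10 FPKM over the 3 libraries. All other neighbors in this order differed beyond counting error.

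**Figure D2:**
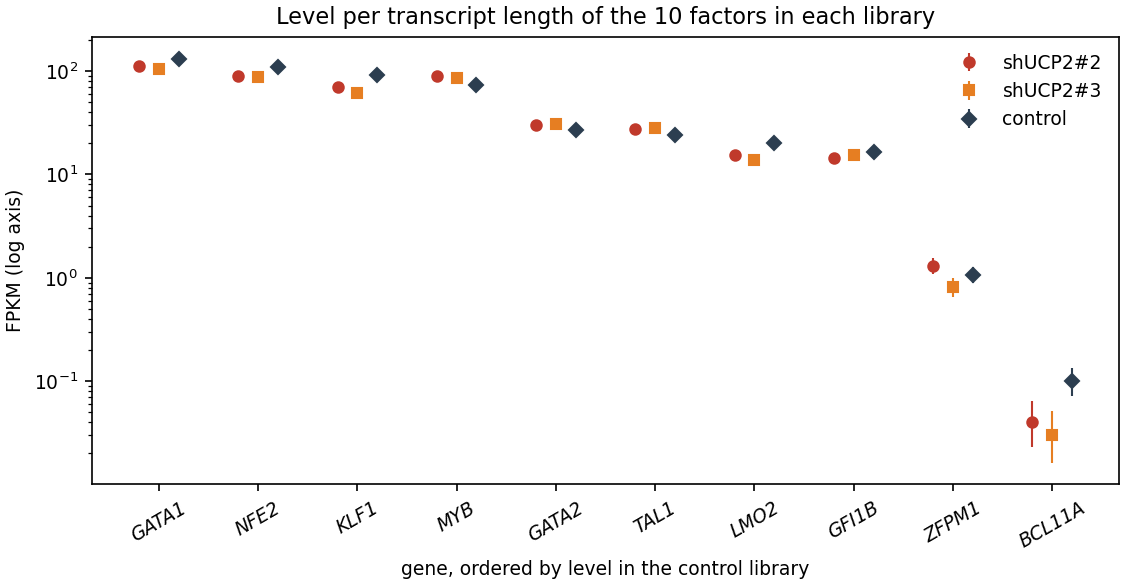
FPKM of each factor (vertical log axis) in the shUCP2#2, shUCP2#3 and control libraries (points, with 95% counting intervals, hidden by the point where narrow). GATA1 was highest in every library at 104 to 132 FPKM, MYB stood above KLF1 in both shUCP2 libraries and below it in the control, and BCL11A stayed at or below 0.10 FPKM.

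Ratios between factors within a library do not depend on how libraries are scaled to each other. All but the ratio of GATA2 to GATA1 were chosen after their values were seen and are given as a description. Per base of exon, MYB over KLF1 was 1.26 in the shUCP2#2 library (counting interval 1.20 to 1.33) and 1.40 in the shUCP2#3 library (1.33 to 1.48), against 0.800 in the control (0.766 to 0.836). MYB over GATA1 was 0.792 and 0.818 in the shUCP2#2 and shUCP2#3 libraries, against 0.560 in the control. TAL1 over LMO2 was 1.77 and 2.02 with the hairpins, against 1.18 in the control, so that the partners of this complex stood further apart in the shUCP2 libraries. NFE2 over GATA1 was 0.806 and 0.846 with the hairpins, against 0.824 in the control, and TAL1 over GATA2 was 0.912 and 0.906 with the hairpins, against 0.883 in the control, with overlapping intervals in both cases. KLF1 over GATA1 was 0.628 and 0.584 in the shUCP2#2 and shUCP2#3 libraries, against 0.700 in the control. There the intervals of the hairpin libraries, which reached up to 0.665 and 0.620, lay below the control's lower bound of 0.666. LMO2 over GATA1 was 0.138 and 0.133 with the hairpins, against 0.153 in the control, and the intervals of both hairpin libraries overlapped that of the control.

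**Figure D3:**
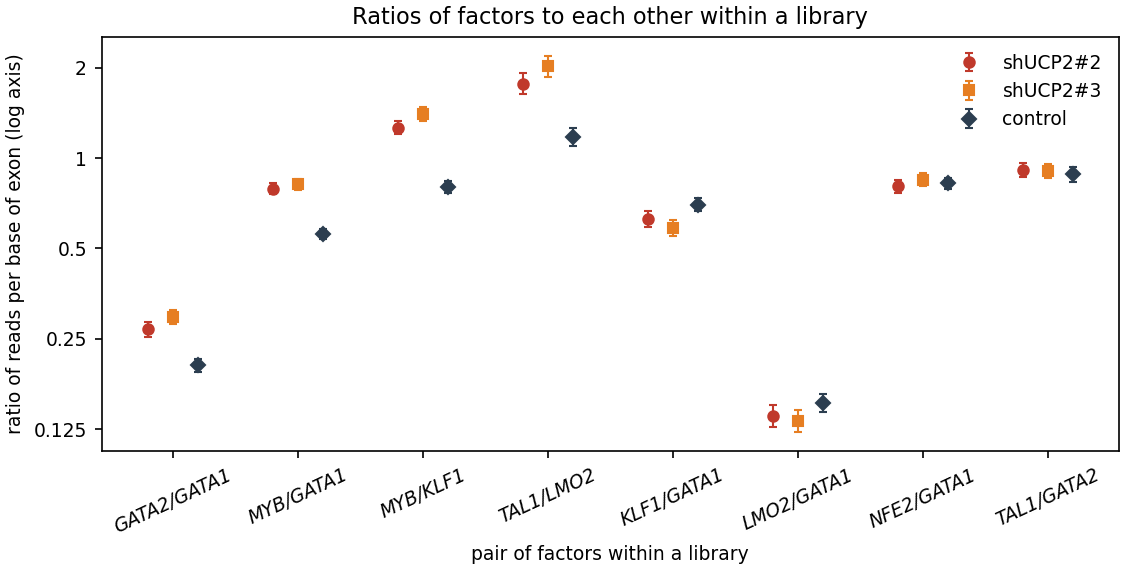
Ratio of reads per base of exon between pairs of factors within each library (vertical log axis, points with 95% counting intervals) for the shUCP2#2, shUCP2#3 and control libraries. The ratios of GATA2 to GATA1, MYB to GATA1, MYB to KLF1 and TAL1 to LMO2 were higher in both shUCP2 libraries than in the control, while those of NFE2 to GATA1 and TAL1 to GATA2 overlapped.

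Because GATA factors regulate one another and themselves, the promoters of the factors were searched for GATA letters. Windows of 300 bases, from 250 before to 50 after a start site, were taken from RefSeq (GRCh38.p14) and held 15 start sites of 8 factors. The promoters of NFE2 and LMO2 were not analysed here. The letters AGATAA or TGATAA on either strand were in 3 of these 15 windows, and in 16.3% of all 35114 windows. They began 66 bases before the start of KLF1, 35 before the first start of TAL1 and 116 before the second start of GFI1B. The NFE2 letters TGAGTCA were in 0 of the 15 windows and in 4.95% of all. The E-box letters CANNTG, for TAL1, were in 7 of the 15 windows and in 68.7% of all. The KLF1 letters CCNCNCCC were in 11 of the 15 and in 56.2% of all, and the MYB letters AACNG in 9 and in 77.2%. The 120 bases before the start of KLF1 (chr19:12887202-12887321, minus strand) and TAL1 (chr1:47232336-47232455, minus strand) are shown since both hold the GATA letters, here in capitals and as their reverse complement, while KLF1 fell and TAL1 did not pass the test. MYB (chr6:135181188-135181307, plus strand), which rose, is shown as a promoter without the GATA letters.
KLF1: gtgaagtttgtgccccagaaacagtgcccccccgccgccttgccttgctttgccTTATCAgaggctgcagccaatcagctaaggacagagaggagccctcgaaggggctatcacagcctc
TAL1: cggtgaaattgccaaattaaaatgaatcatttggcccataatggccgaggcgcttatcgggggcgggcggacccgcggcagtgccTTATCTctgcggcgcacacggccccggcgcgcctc
MYB: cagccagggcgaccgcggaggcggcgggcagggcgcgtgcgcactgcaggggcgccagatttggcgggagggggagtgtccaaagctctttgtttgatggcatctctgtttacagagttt
A match of letters is a description of these windows and not evidence of binding.

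Reads of overlapping genes could not be separated by strand, because the strand setting of the counting is not given in the sources used here. GATA1 and KLF1 had no overlapping gene in the table. At the other 8 factors, 12 overlapping genes were listed, most at or near 0 counts. GATA2-AS1 had 178 and 159 counts in the shUCP2#2 and shUCP2#3 libraries, against 205 in the control. TSC1, which overlaps the start of GFI1B, had 411 and 411 counts in the shUCP2 libraries, against 361 in the control (log2 fold change 0.30, adjusted p = 0.344 by edgeR). The gene ENSG00000226252, opposite TAL1, had 6 and 6 counts with the hairpins, against 27 in the control.

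Of 28 partners with which the factors form complexes, all tested, 5 were called higher, 3 lower and 20 did not pass the test, and their median log2 fold change was 0.01. In this and the following lists, medians and changes given with an SE are log2 fold changes of the same edgeR fit. RUNX1, a partner of GATA1 and TAL1, had 1321 and 1671 counts in the shUCP2#2 and shUCP2#3 libraries, against 895 in the control, and rose by 0.85 on the log2 scale (SE 0.13, adjusted p = 2.21e-09 by edgeR). The small MAF protein MAFG, a dimer partner of NFE2, rose by 0.43 (SE 0.11) and the acetyltransferase CREBBP by 0.60 (SE 0.16). LYL1, a close relative of TAL1, had 1633 and 1614 counts with the hairpins, against 2253 in the control, and fell by 0.36 on the log2 scale (SE 0.11, adjusted p = 0.00815 by edgeR). LDB1, the core of the GATA1, TAL1 and LMO2 complex, had 2669 and 2821 counts with the hairpins, against 2855 in the control, and did not pass the test.

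Family relatives of the factors were also counted, whatever their values. Of 25 relatives, 16 could be tested, of which 4 were called higher and 2 lower, with a median log2 fold change of 0.42. LMO4, a relative of LMO2, had 419 and 428 counts in the shUCP2 libraries, against 230 in the control, and rose by 0.99 (SE 0.20, adjusted p = 3.18e-05 by edgeR), whereas LMO1 had 0 counts in every library. Of the KLF family, KLF6 rose by 0.57 (SE 0.10), KLF10 by 0.47 (SE 0.10) and KLF11 by 0.67 (SE 0.18). KLF3, a repressor that binds the same letters as KLF1, had 1578 and 1773 counts with the hairpins, against 1607 in the control, and did not pass the test. NFE2L3 fell by 0.58 on the log2 scale (SE 0.19). Other GATA factors had few counts. GATA5 had 17 and 24 counts with the hairpins, against 13 in the control, and did not pass the test, and GATA6 had 10 and 0 counts with the hairpins and 2 in the control. GATA3 had 0 counts in both hairpin libraries and 4 in the control, and GATA4 had 3 and 4 counts with the hairpins and 4 in the control. GFI1, the paralog of GFI1B, had 58 and 89 counts with the hairpins, against 54 in the control.

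**Figure D4:**
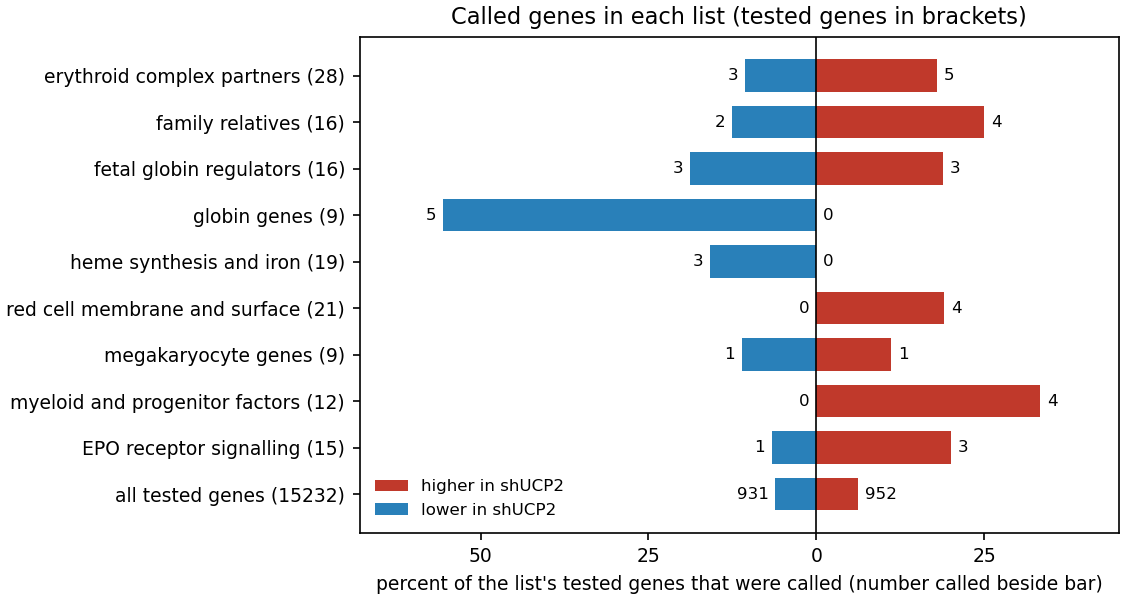
Percent of each list's tested genes called higher (to the right of 0) or lower (to the left) in shUCP2 libraries against the control, with the number of genes called beside each bar and all tested genes as the bottom row. Globin genes had 5 of 9 called lower and none higher, and myeloid and progenitor factors 4 of 12 called higher and none lower.

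Of 16 other regulators of fetal globin, a group to which BCL11A belongs by function, 3 were called higher, 3 lower and 10 did not pass the test, with a median of 0.08. The histone methyltransferase EHMT2 had 549 and 651 counts in the shUCP2 libraries, against 1037 in the control, and fell by 0.68 on the log2 scale (SE 0.14, adjusted p = 6.64e-05 by edgeR), and the DNA methyltransferase DNMT1 fell by 0.40 (SE 0.09). HIC2, a repressor of BCL11A, rose by 0.40 (SE 0.10). IGF2BP3 rose by 0.51 (SE 0.14). SOX6, a partner of BCL11A, had 39 and 93 counts in the shUCP2#2 and shUCP2#3 libraries, against 22 in the control. It was called higher, by 1.67 on the log2 scale (SE 0.56, adjusted p = 0.0302 by edgeR). Its log2 ratios were far apart, at 0.925 for shUCP2#2 and 2.04 for shUCP2#3.

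Genes that the factors are known to regulate were counted next. Of 9 globin genes tested, counting the alpha globin chaperone AHSP among them, 5 were called lower and 0 higher, with a median of -0.55. The fetal gene HBG2 had 15211 and 16496 counts with the hairpins, against 24738 in the control, and fell by 0.53 on the log2 scale (SE 0.07, adjusted p = 3.69e-12 by edgeR). The embryonic gene HBZ had 656 and 674 counts with the hairpins, against 1409 in the control, and fell by 0.97 on the log2 scale (SE 0.13, adjusted p = 4.89e-11 by edgeR), whereas HBB, the adult gene that KLF1 activates, had only 0 and 8 counts with the hairpins and 8 in the control. Near-identical copies such as HBA1 and HBA2 or HBG1 and HBG2 can share reads. Of 19 genes of heme synthesis and iron, 3 were called lower and 0 higher, with a median of -0.08. The transferrin receptor TFRC fell by 0.35 (SE 0.06), while ALAS2, which encodes the first enzyme of heme synthesis in red cells and a GATA1 target, had 1637 and 1360 counts with the hairpins, against 1734 in the control, and did not pass the test. Of 21 genes of the red cell membrane tested, 4 were called higher and 0 lower, with a median of 0.09. Among them, EPB41, which encodes protein 4.1 of the membrane skeleton, rose by 0.52 (SE 0.08, adjusted p = 1.97e-08 by edgeR).

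Genes of neighboring lineages and of erythropoietin signaling completed the lists. Of 18 myeloid and progenitor factors, 12 could be tested, of which 4 were called higher and 0 lower, with a median of 0.52. SPI1 (PU.1), which antagonizes GATA1, had 466 and 465 counts in the shUCP2 libraries, against 349 in the control, and rose by 0.53 (SE 0.18, adjusted p = 0.0318 by edgeR). MECOM rose by 0.61 (SE 0.16) and CEBPB by 0.52 (SE 0.14), and RUNX1 belongs to this list as well. Of 19 megakaryocyte genes, 9 could be tested and 7 had 0 counts in every library. Of these 9, TUBB1 was called lower (-0.49, SE 0.18) and THBS1 higher. THBS1, which encodes thrombospondin, had 75 and 38 counts in the shUCP2#2 and shUCP2#3 libraries, against 3 in the control. Of 15 genes of erythropoietin receptor signaling, 3 were called higher and 1 lower, with a median of 0.34. SOCS2 rose by 0.55 (SE 0.10), SH2B3 by 0.41 (SE 0.12) and PIM1 by 0.34 (SE 0.07), and STAT5A fell by 0.38 (SE 0.10). EPOR, the receptor gene, had 104 and 92 counts with the hairpins, against 73 in the control, and did not pass the test.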

How the data were processed

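RNA of 3 libraries was analysed. The labels name total RNA as the molecule, although their extraction protocol is one for DNA. The authors deposited raw read counts of 61806 genes, not normalized, and FPKM, which equaled the counts scaled by exonic size and library total. Their notes name cutadapt 1.9.1, HISAT2 2.2.1, HTSeq 0.6.1, SAMtools 0.1.19, Cufflinks 2.2.1, DESeq2 and GRCh38. The annotation release is not given in the sources used here. Groups came from sample titles.

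Counts were tested with edgeR 4.0.16 in R 4.3.3 (filterByExpr, TMM, quasi-likelihood F test), which left 1 residual degree of freedom. CPM used TMM-scaled totals of tested genes, for markers as well. Log2 ratios per hairpin used a prior count of 2. Counting intervals are exact and cover counting error only; 3 counts, the limit for a count of 0, correspond to 0.163 to 0.182 CPM. The steps were tested on simulated counts. The members and gene lists were chosen with earlier results of these data known. Named genes were the 10 factors, UCP2, markers, family relatives and up to 4 genes called per list, those with the smallest p. LDB1, SOX6, HBB, ALAS2, EPOR and COL1A2 were named after their values were seen. Alternatives were other scalings and filters, DESeq2 1.42.0, limma 3.58.1 on log2(FPKM + 1), also with pseudocounts of 0.1 and 5, and leaving out each hairpin library. Figures used Python 3.11.15 and matplotlib 3.10.9. Protein sequences were not used here, and 1 marker gene is not reported here.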

Additional observations from a re-analysis of the deposited data

Results flagged for a closer look

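ZFPM1, the cofactor of GATA1, was singled out because its hairpin libraries lay on opposite sides of the control. Its log2 ratio to the control was 0.30 in the shUCP2#2 library and -0.40 in the shUCP2#3 library, a difference of -0.69 (shUCP2#3 minus shUCP2#2). With 1 library for each hairpin and 1 control, this difference was not tested against variation between cultures.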

How the results depend on the processing

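Over 12 alternatives, 116 log2 fold changes of the 10 factors were recomputed, and 114 kept their direction. The other 2 were of ZFPM1, at 0.012 with upper-quartile scaling and 0.29 without the shUCP2#3 library. Which factors passed the threshold changed with the test and, for MYB, also with the filter on low counts. The cause was not tested. Against 4 factors called lower and 1 higher, edgeR with RLE, upper-quartile or no scaling and edgeR restricted to a mean FPKM of 1 or more also gave 4 and 1. Without a filter on low counts edgeR called 4 lower and 0 higher, DESeq2 called 1 lower and 0 higher, and both limma on log2 FPKM with each pseudocount and edgeR without an abundance trend called 0 lower and 0 higher. Over all genes, edgeR called 931 lower and 952 higher, DESeq2 296 and 327, limma 1 and 1 with a pseudocount of 1, 0 and 1 with 0.1 and 8 and 16 with 5, and edgeR without a trend 0 and 0 (1770 at an unadjusted p under 0.05). Over all alternatives with a test, the adjusted p ran from 3.37e-05 to 0.429 for KLF1, from 0.0163 to 0.485 for GATA1, from 0.0122 to 0.472 for NFE2, from 0.00929 to 0.429 for LMO2 and from 0.0222 to 0.534 for MYB. Leaving out a hairpin library allows no test with 1 library on each side. The ratio of GATA2 to GATA1, relative to the control, then ran from 1.32 to 1.45. BCL11A was not tested in the restricted fit or by limma, and DESeq2 gave neither it nor ZFPM1 an adjusted p. No paired analysis was possible because there was a single control library, which the labels pair with neither hairpin library. BCL11A had the fewest counts of the 10 factors in every library, from 13 to 44.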
